A study of Mus musculus with 22 samples.

Results

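The 8 arrays described here profiled the dissected anterior neural tube of control mouse embryos at gestational day (GD) 8 hour 15 (GD8:15, 4 arrays) and GD9 hour 0 (GD9:00, 4 arrays). They were taken by their titles as the control arrays of these stages, and are 8 of the 22 arrays of the series. All embryos lacked Folr2 (called Folbp2 in the labels), the gene of a folate-binding membrane protein, so no wild-type animal enters the comparison. The dams of the controls had been injected intraperitoneally with water, 10 µL per g of body weight, on GD7:12 and GD8:12, and the embryos were taken 3 h and 12 h after the second injection. The same stages were also measured after injections of sodium arsenate at 9.6 mg of arsenic per kg on the same days (4 arrays at GD8:15 and 3 at GD9:00), and the series follows both arms to GD9:12 (3 control and 4 arsenic arrays). The labels do not say whether arrays of a group came from separate dams, so a p-value measures the spread between these samples only. The comparison asks how the transcriptome of the anterior neural tube of water-injected controls moved between the stages.

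Over these hours the neural plate of the mouse head bends, its lateral edges rise as neural folds, and the folds meet and fuse into a closed tube. The epithelium proliferates rapidly throughout, carries regional identity through transcription factors such as Otx2, and is patterned by bone morphogenetic protein (BMP), WNT, fibroblast growth factor (FGF) and retinoic acid signals. Folate supplies the single carbon units for nucleotide synthesis and methylation that dividing neural cells use, and mutations in several genes of actin, signalling and chromatin pathways leave the tube open.

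Values are log2 intensities of single oligonucleotide probes after quantile normalisation over the 22 arrays. The median level of all probes was 7.55, and probes with a mean under 7.20 were not tested, so that levels near 7 lie at the dim end of the scale. Across probes, the 4 GD8:15 arrays correlated with r between 0.915 and 0.967, the 4 GD9:00 arrays with r between 0.868 and 0.958, and arrays of different stages with r between 0.824 and 0.944. Codes in the sample titles fall into 4 series, here called A to D, whose meaning the labels do not give. All 4 GD9:00 controls are of series C, while the GD8:15 controls are of series A (replicate 1), D (replicates 2 and 4) and C (replicate 3), so that only replicate 3 can be set against GD9:00 within a series. Runs of neighbouring probe numbers with low signal held 6.02%, 5.10%, 1.15% and 5.55% of the probes on GD9:00 replicates 1 to 4, and at most 1.94% on a GD8:15 control. Folr2 lay at percentile 2.93 of mean level, with 7.05 ± 0.09 (SD, n = 4) at GD8:15 and 7.03 ± 0.08 (SD, n = 4) at GD9:00. A value stands for its probe: of 93 genes with 2 tested probes, 54 had the same sign of stage difference on both. Among the 22 of them with a call on either probe, 13 had the same sign, and among the 4 with calls on both, 3 did. Probes of the same gene thus agreed poorly. The assignment of probes to genes may be wrong for part of them, which was not tested, and gene names below stand for single probes.

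**Figure D1:**
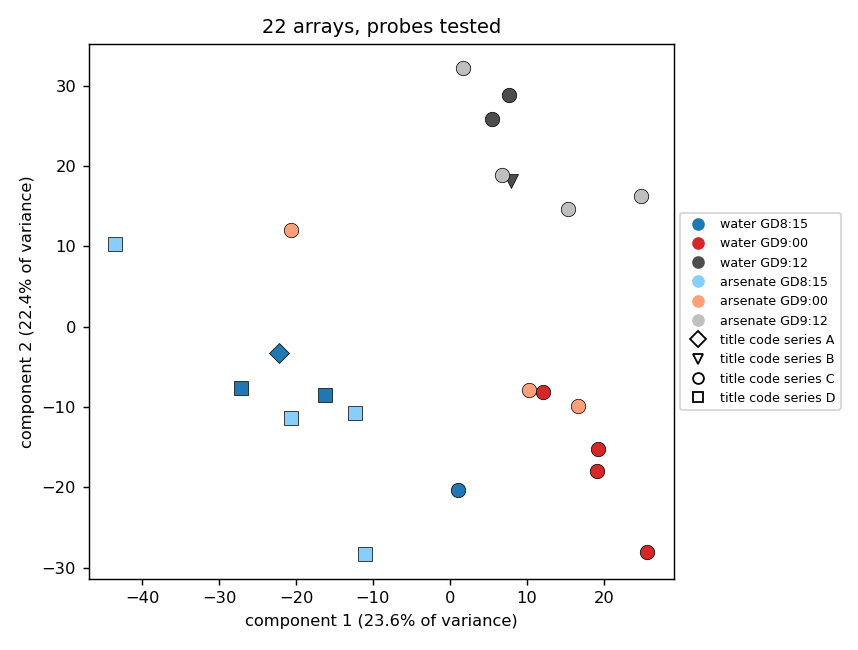
Principal components of the 22 arrays over the tested probes; the axes are the first and second component with their share of the variance, colour gives arm and stage, and the marker gives the title code series. The GD9:00 controls lie between 12.1 and 25.6 on component 1, and the GD8:15 controls between -27.1 and 1.01, the highest of them being replicate 3 of series C.

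In the plot of principal components the control stages did not overlap on component 1, which carried 23.6% of the variance. The GD8:15 control of series C was the closest to the GD9:00 controls, at 1.01 against 12.1 for the nearest of them.

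Pkm, Skp2, Sqstm1 and H2az1 had the largest rises of the genes named here, and Mtdh, Dxo, Usp42 and Wfdc2 the largest falls. Of 7830 probes tested, 1173 (15.0%) passed an adjusted p of 0.05, 638 of them higher (8.15%) and 535 lower (6.83%) at GD9:00. The median difference of the higher probes was 0.67 on the log2 scale and that of the lower ones -0.68, and 307 of the 1173 differed by more than 1. The arrays of the stages did not overlap for 1727 probes (22.1%), among them 952 of the probes called. Of the 638 higher probes 320 had a GD8:15 mean under the median level of all probes and 78 a GD9:00 mean there, of the 535 lower ones 79 and 244, and of all 7830 tested 2696 and 2688; a probe chosen for a rise is also one with a low start. Within series C, where 1 GD8:15 array faced 4 GD9:00 arrays, 1140 of the 1145 called probes that could be measured kept their direction, with medians of 0.49 and -0.47, and 56 probes of the whole array passed the threshold. The GD8:15 array concerned also entered the calls, and the spread in that fit comes from the other series C groups, the lone array being assumed to vary like them, so values within series C are descriptions and add no independent support. With series as a fixed term the contrast rests on that same GD8:15 array, and the called probes had medians of 0.49 and -0.46. Stage and series run together by design for every probe, with only that array to separate them, so they cannot be told apart for the probes called. When the arrays kept the deposited scaling, without quantile normalisation, the median of all probes shifted to -0.49 and 168 probes were called higher against 2576 lower, so directions below are relative to the bulk of the probes. The deposited values have a lower mean at GD9:00, about 500 against 600 at GD8:15, which by itself lowers every difference in that setting.

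Among metabolic enzymes, Pkm, the pyruvate kinase of the last step of glycolysis, had the highest difference of any named gene. Its level was 8.26, 8.04, 7.50 and 7.53 on the GD8:15 arrays and 13.11, 13.30, 12.48 and 12.27 on the GD9:00 arrays. The stages lay far apart, and the rise was 4.96 ± 0.41 (SE), or 31.1-fold, with an adjusted p of 7.0e-07. Atp5b, the catalytic beta subunit of mitochondrial ATP synthase, stood at 8.61, 8.16, 7.83 and 8.49 at GD8:15 and at 10.43, 10.34, 9.82 and 10.34 at GD9:00. It rose by 1.96 ± 0.17 (SE), with an adjusted p of 8.9e-07. Hadh, a dehydrogenase of mitochondrial fatty acid oxidation, was at 7.77, 7.65, 6.88 and 7.90, then at 9.83, 9.38, 9.09 and 9.52, a rise of 1.91 ± 0.21 (SE). Chchd1, a protein of the mitochondrial ribosome, rose from between 10.52 and 11.85 to between 12.30 and 13.18. Its highest GD8:15 value came from the series C array.

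Among genes of proliferation, Skp2, the substrate receptor of a ubiquitin ligase that marks the cell cycle inhibitor p27 for degradation, was next to Pkm. The GD8:15 arrays held 7.83, 7.64, 7.40 and 7.63, and the GD9:00 arrays 12.19, 11.93, 10.15 and 11.40, a rise of 3.79 ± 0.33 (SE), or 13.9-fold. Mcm7, a subunit of the replicative helicase, moved from 7.83, 7.42, 7.46 and 7.37 to 9.63, 9.60, 9.28 and 9.57, which is 4.00-fold (adjusted p = 2.9e-05). H2az1, which encodes the histone variant H2A.Z, was at 9.94, 10.16, 11.69 and 9.50 and then at 12.95, 13.45, 12.31 and 12.92. Its series C array at GD8:15 was the nearest to the later stage, and the difference was 2.59 ± 0.48 (SE; adjusted p = 0.0021).

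Among genes that handle RNA and proteins, Hnrnpa1, a splicing regulator, rose from between 7.10 and 7.89 to between 9.74 and 10.26. Sec61a1, the channel through which nascent proteins enter the endoplasmic reticulum, was at 7.17, 7.16, 7.08 and 6.98 at GD8:15 and at 9.90, 9.50, 9.02 and 9.29 at GD9:00. It started at the dim end of the scale, and its rise of 2.33 ± 0.20 (SE) had an adjusted p of 7.0e-07. Sqstm1, an autophagy receptor, rose by 2.92 ± 0.38 (SE) from levels of 8.95 to 10.20. The chaperone subunit Cct5 rose by 2.03 and the HSP40 cochaperone Dnaja1 by 1.99. For Dnaja1 the series C array at GD8:15 stood at 9.66, close to the lowest GD9:00 value of 9.89. Glrx3, a glutaredoxin of iron metabolism, likewise had 9.74 on that array against a lowest GD9:00 value of 9.84. The remaining genes of the 15 highest were Mfsd14a, a transporter-like membrane protein, and Mettl9, a methyltransferase, with rises of 2.21 and 1.90.

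Among the lower genes, Wfdc2, a secreted protease inhibitor of epithelia, was at 11.05, 10.75, 10.05 and 10.64 at GD8:15 and at 8.77, 7.82, 8.43 and 8.92 at GD9:00. The stages did not overlap, and the difference was -2.14 ± 0.30 (SE; adjusted p = 0.00021). Of RNA-processing genes, Ncbp3, a cap-binding factor, fell from 10.14, 9.67, 9.89 and 10.55 to 7.97, 8.18, 8.10 and 8.07, a difference of -1.98 ± 0.21 (SE). Exosc5, a subunit of the RNA exosome, fell from between 10.81 and 11.39 to between 9.20 and 9.47. Dxo, a decapping enzyme, was lower by -2.16, and Son, a splicing cofactor of nuclear speckles, by -1.74. Of genes of ubiquitin and protein handling, Usp42 and Josd2, both deubiquitinases, differed by -2.15 and -1.81, Neurl4 by -1.75, Get4, which guides tail-anchored proteins, by -1.92, and Hspbp1, a cochaperone of HSP70, by -1.90.

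The largest fall among these genes was that of Mtdh (metadherin), from between 11.63 and 12.13 to 7.76, 10.09, 10.32 and 10.56. Its GD9:00 replicate 1 lay apart from the other 3, and the difference was -2.20 ± 0.43 (SE). The importin Kpna4 was 4.00-fold lower, and Gpam, the first enzyme of glycerolipid synthesis in mitochondria, and Rps6kb2, a ribosomal S6 kinase, differed by -1.89 and -1.67. Ramp2, a receptor partner for adrenomedullin in endothelium, fell from between 10.38 and 11.63 to between 8.80 and 9.31.

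**Figure D2:**
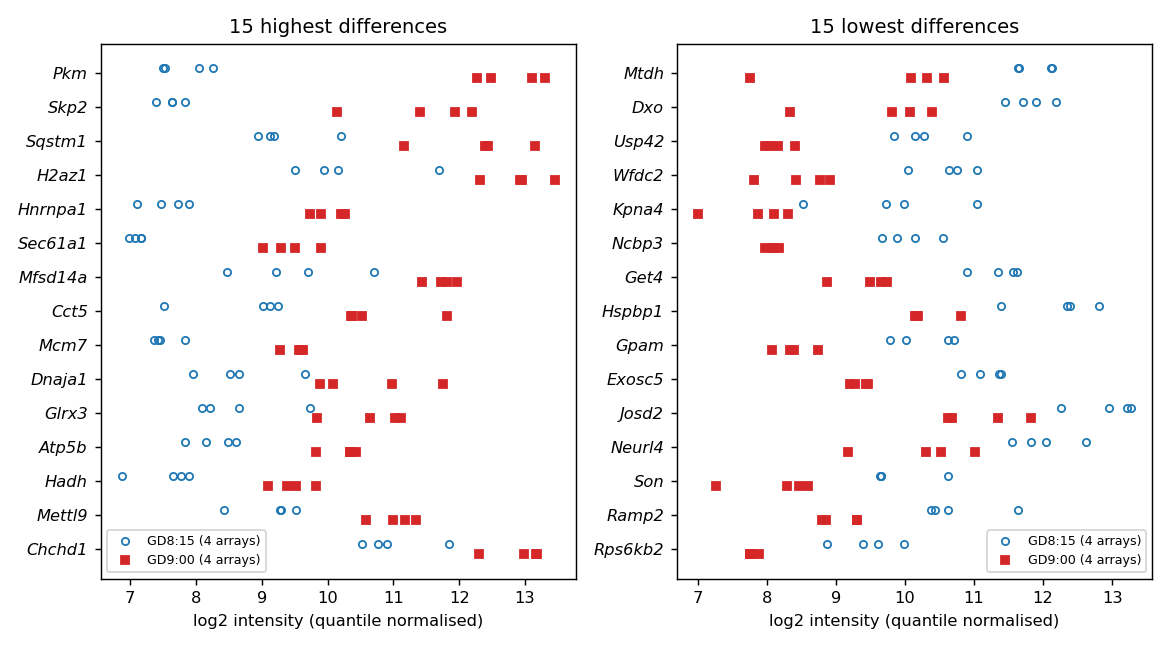
Quantile-normalised log2 intensity (x axis) on the 4 GD8:15 control arrays (open circles) and the 4 GD9:00 control arrays (squares) for the 15 largest rises (left) and the 15 largest falls (right). The arrays of the stages do not overlap, which the choice of these genes required, and Pkm has the widest gap, from at most 8.26 to at least 12.27.

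The 30 genes in the plot of values by array were chosen for size among 814 called probes whose stages did not overlap and that had no value in a low-signal run, so their separation describes them and tests nothing. Within series C, whose GD8:15 array was among those that chose them, all 30 kept their direction, at a median of 0.82 of the difference over all arrays. For Pkm the difference within that series was 5.29, and for Skp2 it was 4.02. Among the 149 called genes followed through the alternative settings, only Pkm, Skp2, Sec61a1, Atp5b, Hadh, Ncbp3, Exosc5 and the small heat shock protein Hspb1 passed the threshold in all 20. The setting within series C and the one with the fixed series term rest on that single GD8:15 array.

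**Figure D3:**
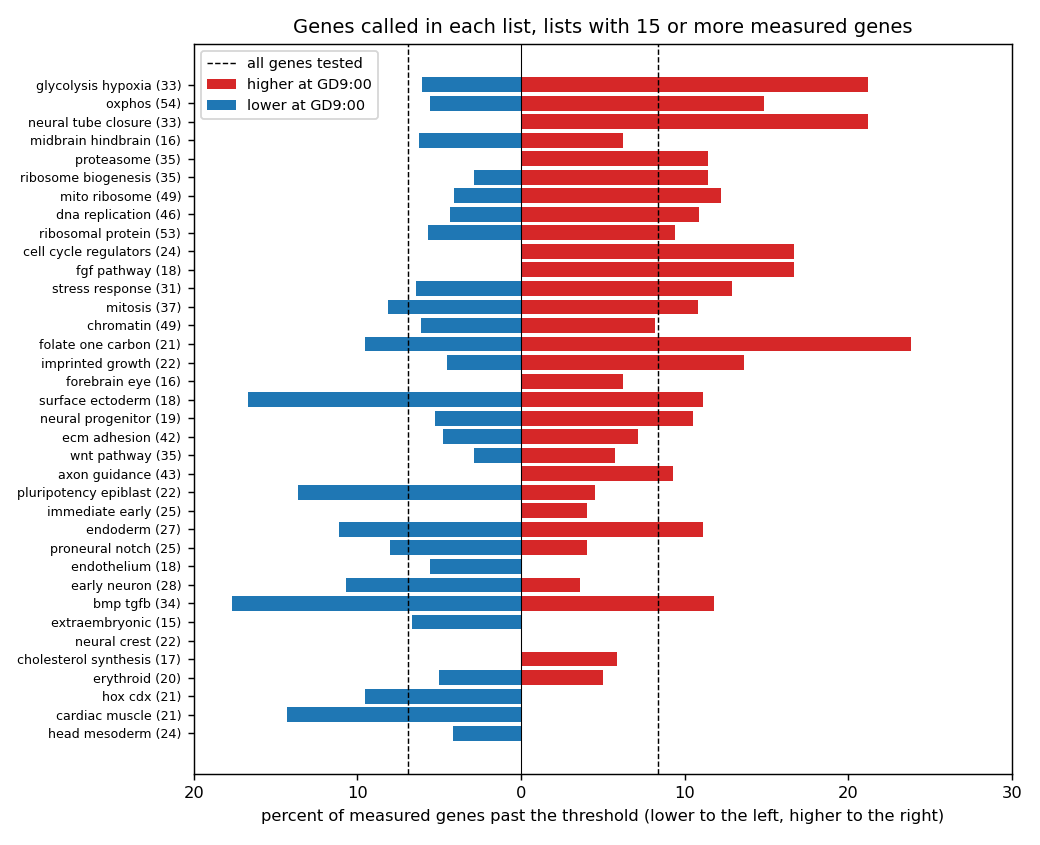
Percent of the measured genes of each list that passed the threshold, higher at GD9:00 to the right and lower to the left, with the number measured in parentheses and the lists ordered by their median difference. Dashed lines give the percent over all genes tested, 8.34% higher and 6.93% lower. Glycolysis and hypoxia genes stand at the top with 7 higher and 2 lower of 33, and neural crest genes have no call.

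With 1 probe per gene, 1097 of 7186 genes passed (15.3%), 599 of them higher (8.34%) and 498 lower (6.93%). The plot of calls by gene list shows most lists near these shares. In the glycolysis and hypoxia list 9 of 33 measured genes passed (27.3%), 7 higher and 2 lower, and the median of the list was 0.39 against -0.02 over all genes. That median was -0.027 under the deposited scaling, which was 0.46 above the median of all genes there, and 3 of its genes were called higher against 8 lower. Of all 7146 genes in that setting 159 were called higher and 2340 lower, and the list counts given for it below stand beside these. Besides Pkm, Bnip3l, a mitophagy receptor induced by hypoxia, rose from 8.37, 8.69, 8.43 and 8.00 to 10.00, 10.37, 9.88 and 9.53. Ddit4, an inhibitor of mTORC1 signalling induced by hypoxia and stress, rose by 1.11 ± 0.20 (SE). Egln1, the prolyl hydroxylase that marks hypoxia-inducible factor (HIF) for degradation, and P4ha1, a collagen prolyl hydroxylase, each rose by 0.71. The lactate transporter Slc16a1 rose by 0.87, with overlapping arrays. Tpi1, a glycolytic isomerase, rose by 0.50 from the dim end of the scale, and was level under the deposited scaling at -0.0054. The lower genes were Pgam2, the muscle form of phosphoglycerate mutase, at -0.95, and the cytokine Mif at -1.58, where GD9:00 replicate 4, at 9.84, lay in a low-signal run.

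Promoter sequences were printed for the hypoxia-inducible genes that moved together because the core of the HIF binding site, ACGTG, can be looked up in them; the 3 genes were chosen after their values were seen. Of the 7 higher genes of the list, 6 matched the RefSeq promoter table, and 5 of these (Pkm, Slc16a1, Egln1, Ddit4 and P4ha1) held ACGTG on either strand in the 250 bases before a start site. Neither of the 2 lower genes held it, 14 of 22 matched genes that did not pass held it, and 16.6% of all 32851 start sites in the table did. These are matches of letters only, and genes with several start sites had more chances to match. The sequences below, from the build GRCm38.p6, run 5′ to 3′ on the gene's strand and end at the base before the start site, with ACGTG or its complement CACGT in capitals.
Egln1, chr8:124949255-124949504, minus strand: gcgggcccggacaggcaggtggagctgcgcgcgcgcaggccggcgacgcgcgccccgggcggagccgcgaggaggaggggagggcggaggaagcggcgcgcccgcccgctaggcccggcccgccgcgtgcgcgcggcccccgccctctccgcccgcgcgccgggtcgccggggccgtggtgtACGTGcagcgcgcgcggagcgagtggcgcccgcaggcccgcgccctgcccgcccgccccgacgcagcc
Ddit4, chr10:59951771-59952020, minus strand: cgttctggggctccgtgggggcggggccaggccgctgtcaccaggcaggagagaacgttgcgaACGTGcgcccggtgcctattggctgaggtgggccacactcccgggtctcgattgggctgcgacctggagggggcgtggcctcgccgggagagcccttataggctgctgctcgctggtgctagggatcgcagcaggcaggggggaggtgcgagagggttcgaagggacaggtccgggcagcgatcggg
P4ha1, chr10:59323046-59323295, plus strand: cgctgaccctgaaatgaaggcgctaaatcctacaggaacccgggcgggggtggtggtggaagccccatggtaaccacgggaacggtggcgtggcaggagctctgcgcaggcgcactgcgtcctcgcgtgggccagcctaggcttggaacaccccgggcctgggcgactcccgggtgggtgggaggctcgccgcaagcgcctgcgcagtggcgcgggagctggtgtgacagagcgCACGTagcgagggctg
The match began 68 bases before the start site in Egln1, 187 bases before it in Ddit4 and 16 bases before it in P4ha1.

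In the oxidative phosphorylation list 11 of 54 genes passed (20.4%), 8 higher and 3 lower, with a median of 0.33 that stayed above 0 under the deposited scaling, at 0.15, where 5 genes were called higher and 5 lower. After Atp5b, the complex I subunit Ndufb5 rose by 1.59, the cytochrome oxidase subunits Cox7a2l and Cox7b by 1.29 and 1.24, and Uqcrb of complex III by 0.90. The complex I subunit Ndufb2 rose by 0.71 ± 0.16 (SE). The 3 lower genes encode subunits of the same complexes and were among the brightest of the array: Cox6a1 went from between 14.05 and 14.58 to between 13.14 and 13.65, Cox6b1 differed by -0.74, and Atp5j2 of ATP synthase by -1.23, with 1 value in a low-signal run. In the arsenic arm the median difference of the list was 0.15.

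Genes of the cell cycle were read from 3 lists. All 4 calls among 24 regulators of the cycle were higher (16.7%, near the 15.3% over all genes), against 2 higher and 5 lower under the deposited scaling. Ccnd2, the D-type cyclin of neural progenitors, was at 7.96, 7.98, 8.66 and 8.09 at GD8:15 and at 10.31, 9.69, 9.34 and 9.21 at GD9:00, a rise of 1.46 ± 0.24 (SE). Ccnd3 rose by 1.14 ± 0.15 (SE) and E2f1, a transcription factor of replication genes, by 0.80 ± 0.17 (SE). Rb1 was the remaining higher call. Of 46 DNA replication genes, 5 were higher and 2 lower (15.2%), close to the share over all genes. Mcm5 rose by 0.85, Gins4, of the same helicase complex, by 0.64, and Mcm2 by 0.49. The difference of Mcm2 was -0.0045 under the deposited scaling. Cdc45, which acts with both in the helicase, and Pold2, a polymerase delta subunit, were lower by -1.21 and -0.93, and the call of Cdc45 was lost when low-signal runs were masked. Of 37 mitosis genes, 4 were higher and 3 lower (18.9%, against 15.3% over all genes). Cks1b, the cofactor of Skp2, rose by 1.04 ± 0.25 (SE), whereas Ccnf, Incenp of the chromosomal passenger complex and its partner Birc5 differed by -1.21, -0.77 and -1.13. For the condensin gene Smc2 the probes disagreed, at 1.21 and -1.22, both past the threshold.

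For the helicase genes the motif searched was that of E2F factors, as TTTCCCGC, TTTGGCGC, TTTCGCGC or TTTGCCGC on either strand. Of the 5 higher replication genes 4 matched the promoter table, and 2 of them, Mcm7 and Mcm5, held one of these in the 250 bases before a start site. Neither of the 2 lower genes did, 8 of 33 matched genes without a call did, and the share over all start sites was 1.86%. The sequences of these 2 higher genes that held a match are shown, with the matches in capitals.
Mcm7, chr5:138171884-138172133, minus strand: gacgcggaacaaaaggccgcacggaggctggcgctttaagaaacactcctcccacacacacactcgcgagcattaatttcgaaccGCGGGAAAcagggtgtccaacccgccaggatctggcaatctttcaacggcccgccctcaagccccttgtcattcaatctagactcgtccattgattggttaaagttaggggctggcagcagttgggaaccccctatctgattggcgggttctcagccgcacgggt
Mcm5, chr8:75109259-75109508, plus strand: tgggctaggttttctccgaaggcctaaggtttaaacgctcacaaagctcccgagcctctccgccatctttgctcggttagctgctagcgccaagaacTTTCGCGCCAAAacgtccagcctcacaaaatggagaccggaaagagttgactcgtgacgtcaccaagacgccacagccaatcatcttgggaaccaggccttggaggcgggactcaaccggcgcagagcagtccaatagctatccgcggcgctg
In Mcm5 a pair of matches on opposite strands overlapped, the first beginning 153 bases before the start site, and in Mcm7 the single match began 165 bases before it.

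Genes of ribosomes and protein turnover gave calls at about the background share. Of 53 ribosomal protein genes 5 were higher and 3 lower (15.1%), with a median of 0.14. Rps3a1, Rpsa and Rps23 rose by 1.48, 1.11 and 0.97, and Rpl28, Rpl8 and Rps26 differed by -1.97, -1.07 and -0.64. In ribosome biogenesis, Bop1, a factor of large subunit processing, rose from 7.76, 7.51, 7.54 and 7.74 to 10.18, 9.57, 8.96 and 8.94. Its partner Wdr12 rose by 1.35, the nucleolar protein Lyar by 1.45 and Nhp2 by 0.88, while Noc2l differed by -0.97 (4 higher and 1 lower of 35). The 4 calls among 35 proteasome genes (11.4%) were all higher: Psma1 rose by 1.71, Psmd13 by 1.44, Psmd5 by 1.23 and Psme3 by 0.57. With the deposited scaling 3 proteasome genes were called higher and 4 lower, and the list's median, at -0.085, was 0.40 above that of all genes. Of 31 stress response genes, 4 were higher and 2 lower (19.4%, against 15.3% over all genes). The higher ones were led by the constitutive chaperone Hspa8 at 1.80 ± 0.35 (SE), with the disulfide isomerases Pdia3 and Pdia6 at 1.64 and 1.09 and Xbp1 at 0.58. Hspb1 fell from 8.42, 7.69, 8.12 and 7.90 to 7.25, 7.42, 6.87 and 6.95, and Sdf2l1 differed by -1.44, a call lost with low-signal runs masked. For Hspb1, 2 of the 8 values lay in low-signal runs, and its difference went from -0.91 to -0.70 with these masked.

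Among chromatin genes 4 of 49 were higher and 3 lower (14.3%). The arginine methyltransferases Prmt1 and Prmt5 rose by 1.15 ± 0.16 (SE) and 1.25 ± 0.18 (SE), from GD8:15 levels between 7.04 and 7.50 in both. Hmgn2, a nucleosome-binding protein, was bright throughout and rose from between 13.97 and 14.88 to between 15.32 and 15.83. The lower genes were the heterochromatin protein gene Cbx3 at -1.35, the demethylase gene Kdm1a at -0.86 and the Polycomb methyltransferase gene Ezh1 at -0.44.

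Markers of the neural tube were looked up. The filter removed only the dimmest probes, so passing it does not identify a tissue. Sox2, Otx2 and Zic1 passed it, as did the endoderm markers Afp and Apoa1. Sox1 and Sox3 were not on the array, and Pax6 lay near the median of all probes, with 7.41 at GD8:15 and 7.77 at GD9:00. Otx2, the homeobox gene of forebrain and midbrain, stood at 7.89, 7.95, 7.95 and 8.19 at GD8:15 and at 8.92, 8.93, 8.53 and 8.96 at GD9:00. The stages did not overlap, and the rise was 0.84 ± 0.16 (SE; adjusted p = 0.0023). Sox2, the progenitor factor, was at 9.64, 9.29, 9.34 and 9.10 and then at 8.17, 9.02, 9.02 and 7.29, a difference of -0.96 ± 0.31 (SE) with an adjusted p of 0.041. The GD9:00 arrays spread widely and their upper pair lay just under the earlier arrays. Sox4 rose from 7.12, 7.22, 7.34 and 7.13 to 8.15, 8.16, 8.31 and 7.86, which is 0.92 ± 0.11 (SE; adjusted p = 7.4e-05). Its relative Sox11 rose by 1.78 ± 0.39 (SE), from between 8.90 and 10.41 to between 11.15 and 11.54, while a second, dimmer probe of Sox11 differed by -0.33 and did not pass. Zic1 did not pass, at 0.43 ± 0.23 (SE; adjusted p = 0.21), and was -0.044 under the deposited scaling.

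Early neuron genes gave 1 higher and 3 lower calls among 28 (14.3%). Isl1, a LIM homeobox gene of early motor and sensory neurons, rose by 0.74 ± 0.13 (SE). Nefm, the medium neurofilament, fell from 9.25, 8.75, 8.55 and 8.49 to 7.42, 7.34, 7.42 and 6.91, and differed by -1.28 within series C. Ebf3 and Stmn2 differed by -0.51 and -0.41. Of regional genes, Irx2 of the midbrain and hindbrain differed by -0.57, Foxa2 of the floor plate and endoderm rose by 0.43 but was -0.061 under the deposited scaling, and the posterior genes Hoxc13 and Cdx2 differed by -0.74 and -0.65. The call of Cdx2 was lost with low-signal runs masked. No call was made among 22 neural crest or 11 dorsal neural tube genes by limma, although the fit gave 2460 probes an unadjusted p under 0.05 over the whole array.

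Signalling genes moved in both directions. All 3 calls among 18 FGF genes were higher (16.7%, near the 15.3% over all genes). Spry1, a feedback inhibitor of FGF signalling, rose by 1.34 ± 0.35 (SE), the receptor Fgfr1 by 0.79 ± 0.13 (SE) and the ligand Fgf15 by 0.61 ± 0.15 (SE). In the deposited scaling 1 FGF gene was called higher and 6 lower. Of 34 BMP and TGF-beta genes 10 passed (29.4%), 4 higher and 6 lower, with a median of -0.12, and under the deposited scaling 1 was higher and 13 were lower. Id3, a BMP target, rose from 10.61, 11.26, 11.38 and 11.00 to 12.61, 13.13, 11.64 and 11.89. The BMP antagonist Nog rose by 0.30, from between 7.10 and 7.31 to between 7.40 and 7.58, and was at -0.25 under the deposited scaling. Fst, which binds activin, rose by 0.85, with GD9:00 replicate 2 among the GD8:15 values at 7.29. The receptor Tgfbr1 rose by 0.36 and was at -0.14 under the deposited scaling. The ligands Gdf5, Tgfb1 and Bmp6 differed by -0.41, -0.30 and -0.30, the inhibin subunit Inha by -0.30 and the inhibitory Smad6 by -0.30, all to GD9:00 means between 7.13 and 7.26 at the dim end of the scale. The ligand Bmp8b differed by -0.996, and its call was lost with low-signal runs masked. In the WNT list Dvl1, a cytoplasmic transducer, rose by 0.81 ± 0.11 (SE) and Dvl2 by 0.33 ± 0.07 (SE), while the ligand Wnt2b differed by -0.88. Of 12 retinoic acid genes 3 passed (25%), Rxrb being higher. The retinoic acid hydroxylase Cyp26a1 and the retinol carrier Rbp4 were lower by -0.70 and -0.50, and Rfng, a modifier of Notch, by -0.83.

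All 7 calls among 33 measured genes whose loss is known to disturb neural tube closure were higher at GD9:00 (21.2%), and the median of the list was 0.20. Besides Dvl1, Dvl2 and Nog, the set held Fkbp8, Mapk8, Jarid2 and Rab23, with rises of 0.41, 0.45, 0.35 and 0.34. Fkbp8 and Rab23 act on Hedgehog signalling, Mapk8 encodes the kinase JNK1 and Jarid2 a Polycomb cofactor. The last 4 lay between 7.08 and 7.30 at GD8:15, at the dim end of the scale, and reached at most 7.80. Kept at the deposited scaling, Dvl2, Nog, Fkbp8, Mapk8, Jarid2 and Rab23 all turned negative, at between -0.25 and -0.069, and no gene of the list was called higher there against 4 lower, although the list's median lay 0.16 above that of all genes. Of all 7146 genes 159 were called higher and 2340 lower in that setting.

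Folate and one-carbon genes gave the highest share of calls of the 41 lists, 7 of 21 (33.3%, against 15.3% over all genes). The list is small and is singled out here for that share. Its calls were 5 higher and 2 lower, with a median of 0.06. No wild-type animal was compared, so a part of the missing Folr2 in these values was not tested. Atic, the last enzyme of purine synthesis, rose from 7.78, 7.32, 7.49 and 7.34 to 8.14, 7.97, 8.31 and 8.17, a rise of 0.67 ± 0.14 (SE). Ahcy, which clears S-adenosylhomocysteine, rose by 0.67, Mthfs by 0.58, Fpgs, which retains folates in the cell, by 0.48, and the cytosolic serine hydroxymethyltransferase gene Shmt1 by 0.43. Its mitochondrial counterpart Shmt2 fell from 8.88, 8.64, 8.56 and 8.62 to 7.90, 7.84, 7.81 and 7.90, and Gnmt differed by -0.31. Shmt1 was at -0.056 under the deposited scaling. In that setting no folate gene of 20 was called higher and 3 were called lower, against 159 higher and 2340 lower of all 7146 genes.

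Genes of cell surfaces showed a change of epithelial cadherin. Cdh1 fell from 8.39, 8.05, 7.97 and 7.92 to 7.25, 7.04, 7.18 and 7.28, a difference of -0.90 ± 0.13 (SE; adjusted p = 0.00028), and the difference within series C was -0.79. Of the other surface ectoderm and endoderm genes, Krt19 differed by -0.76, while Cldn4, a tight junction protein, and Krt8 rose by 0.92 and 0.53. In the matrix and adhesion list 3 of 42 genes were higher and 2 lower (11.9%), and under the deposited scaling none was higher and 12 were lower. The laminin chain Lamc1 rose by 0.83 and the laminin-binding integrin Itga6 by 0.72. The fibrillar collagen Col2a1 rose by 0.46, and was at -0.053 under the deposited scaling. The lower genes were Cdh1 and the collagen Col9a1, at -0.35 ± 0.09 (SE). All 4 calls among 43 axon guidance genes were higher (9.30%), whereas none was higher and 11 were lower under the deposited scaling. The calls were the ephrins Efnb2 and Efnb1 at 0.69 and 0.47, Unc5c at 0.57 and Sema6a at 0.48. Efnb1 and Sema6a were at -0.060 and -0.019 under the deposited scaling. Of imprinted and growth genes, Nnat (neuronatin) rose from between 7.36 and 7.67 to between 8.55 and 8.75, and Igfbp3 and Igf1 rose by 0.47 and 0.30, both negative under the deposited scaling. The probes of Gnas differed by -1.21 and -0.38, the former losing its call with low-signal runs masked.

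Transcripts of tissue next to the neural tube were present. In bulk tissue, fewer cells of a type and less RNA per cell cannot be told apart. The heart genes Myl7 and Actc1 were among the brightest probes, at percentiles 95.9 and 96.9 of mean level. Actc1, cardiac alpha actin, was at 13.77, 13.08, 13.25 and 13.04 at GD8:15 and at 10.46, 11.09, 10.82 and 13.12 at GD9:00, where replicate 4 lay among the GD8:15 values. Its difference was -1.91 ± 0.53 (SE; adjusted p = 0.021). Hand1 and the smooth muscle calponin Cnn1 differed by -1.20 and -1.47, each with overlapping arrays. Myl7 did not pass, at -1.45 ± 0.52 (SE), nor did Tagln, at -0.92, which was 1.18 within series C. In the cardiac list 3 of 21 genes passed (14.3%), all lower. The mean level of those 21 genes, each taken relative to its own mean over the 22 arrays, ran from 0.19 to 0.39 on the GD8:15 arrays and from -0.25 to 0.17 on the GD9:00 arrays. The embryonic globins Hba-x and Hbb-y lay near the dim end, at 7.19 and 7.51 at GD8:15, and did not pass. The lateral mesoderm gene Osr1 differed by -0.58, Tcf21 did not pass at -0.91 (adjusted p = 0.054), and Apoe, abundant in yolk sac endoderm, rose by 1.05. The sex-linked transcripts Xist, Kdm5d and Eif2s3y did not pass. Xist was at 8.71 on GD9:00 replicate 1 and between 7.02 and 7.20 on the other control arrays of both stages. The part of neighbouring tissue or of embryo sex in the results was not tested.

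The arsenic arm gives the same stages in arrays that share no sample with the controls. There 330 probes (4.21%) passed, 188 higher (2.40%) and 142 lower (1.81%). Of the 638 probes higher in controls, 535 (83.9%) were also higher in the arsenic arm, 137 of them past the threshold. Of the 535 lower probes, 500 (93.5%) were also lower, 91 past the threshold, and no probe of either kind passed in the opposite direction. Over all tested probes 68.2% had the same sign in both arms. The medians in the arsenic arm were 0.28 and -0.37, against 0.67 and -0.68 in controls, where the probes had been selected. The series codes run with stage in the arsenic arm as well, all 4 GD8:15 arrays being of series D and the 3 GD9:00 arrays of series C.

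**Figure D4:**
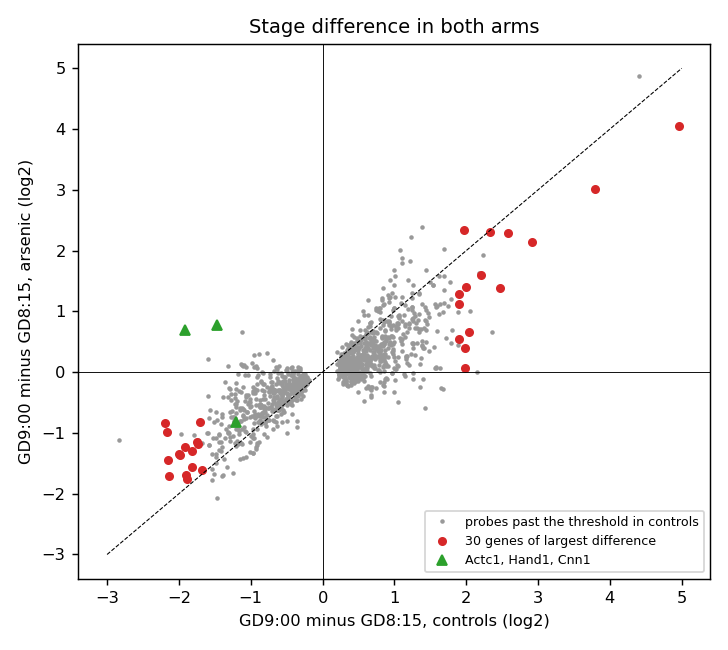
Difference GD9:00 minus GD8:15 (log2) in controls (x axis) and in the arsenic arm (y axis) for the 1173 probes past the threshold in controls; the dashed line marks equal differences, and coloured symbols mark the 30 genes of largest difference and 3 muscle genes. All 30 genes lie on the same side of 0 in both arms, whereas Actc1 and Cnn1 are below 0 in controls and above 0 in the arsenic arm. Hand1 is below 0 in both arms.

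All 30 genes of largest difference had the same sign in the arsenic arm, 16 of them past the threshold, as the plot of both arms shows. Pkm rose by 4.04 there, Skp2 by 3.02, Atp5b by 2.35, Sec61a1 by 2.31 and Mcm7 by 1.40, and Wfdc2, Gpam and Exosc5 differed by -1.71, -1.76 and -1.56. Dnaja1 was the exception in size, at 0.07 against 1.99 in controls, with Glrx3 next at 0.39. Id3, higher by 1.25 in controls, was level in the arsenic arm at -0.01, as were E2f1 at -0.0024 and Tpi1 at 0.0030. Part of the muscle genes pointed the other way, with Actc1 at 0.69, Cnn1 at 0.78 and Myl7 at 0.89 in the arsenic arm. Actc1 and Cnn1 did not pass there by limma (adjusted p = 0.56 and 0.23). Their GD8:15 means were already lower in the arsenic arm, at 11.71 against 13.29 in controls for Actc1 and 8.66 against 9.82 for Cnn1. Hand1 kept its direction there, at -0.82, and Acta1, which differed by -0.49 in controls, was level at 0.015. The test of the difference between the arms called 0 of 7830 probes by limma (0.00%), with a lowest adjusted p of 0.39 and 639 probes at an unadjusted p under 0.05, and 2 probes passed with array weights. For Actc1 the arms differed by 2.61 (adjusted p = 0.39). A gene that passed in controls and not after arsenic is therefore not shown to differ between the arms.

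**Figure D5:**
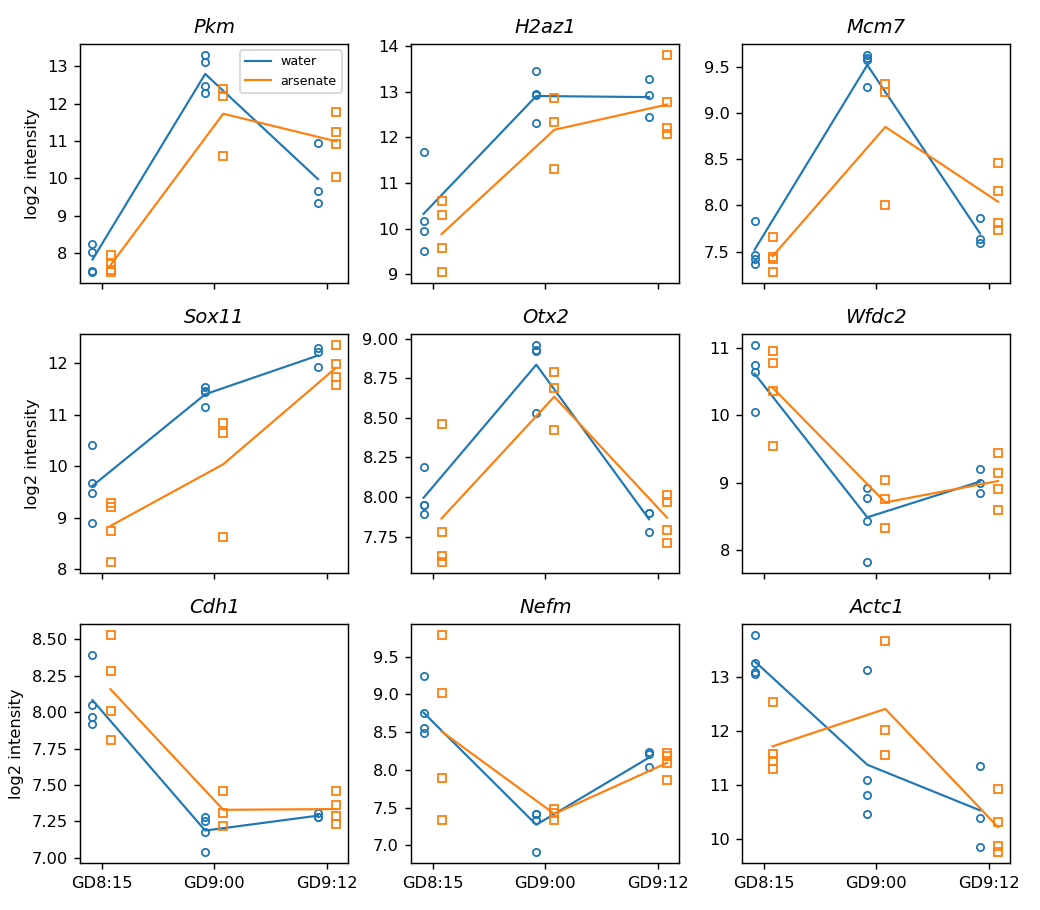
Log2 intensity (y axis, own scale in each panel) of 9 genes at GD8:15, GD9:00 and GD9:12 in control arrays (circles) and arsenic arrays (squares); lines join the group means. The means of Pkm and Mcm7 are highest at GD9:00 in both arms, Sox11 is highest at GD9:12, and Actc1 is lowest at GD9:12.

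The plot of 9 genes over the stages shows the next 12 h. The control difference from GD9:00 to GD9:12 shares the GD9:00 arrays, so its values are set beside those above and make no further test. In that step 880 probes passed (11.2%), 299 higher (3.82%) and 581 lower (7.42%), and the probes higher at GD9:00 had a median of -0.44, the lower ones a median of 0.24. Over the same step in the arsenic arrays, which share no array with the controls, these medians were -0.13 and 0.027. Pkm differed by -2.81 at GD9:12, Skp2 by -2.87, Atp5b by -2.12, Mcm7 by -1.82 and Otx2 by -0.97, so that the control means of these genes were highest at GD9:00 among the 3 stages. In the arsenic arm 304 probes passed for this step (3.88%), among them Atp5b at -1.64 and Otx2 at -0.76. Pkm, Skp2 and Mcm7 did not pass there, at -0.74, -1.14 and -0.81 (adjusted p = 0.47, 0.086 and 0.072). H2az1 held its level, at -0.02, and Sox11 went on upward by 0.75, which did not pass. Of the lower genes Wfdc2, Exosc5, Cdh1 and Ncbp3 differed by 0.54, -0.18, 0.11 and 0.11, none past the threshold, and Mtdh returned by 1.77. Zic1, without a call between GD8:15 and GD9:00, rose by 2.57 in the next step in both arms.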

How the data were processed

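RNA was amplified by T7 transcription with biotin-UTP and detected with fluorescent streptavidin on one-colour arrays of 10500 probes, per the labels' protocols. The deposited values are linear intensities with an equal mean per stage, about 600 at GD8:15 and 500 at GD9:00. That the authors had scaled them is inferred from these means. Software, background correction and scaling method are not given in the sources used here. The 838 values of 1 or 2 were set to missing, log2 values were quantile normalised over 22 arrays, and probes with values on at least 2 arrays per group and a mean above the lowest 25% were tested (7830; 7283 with 1 symbol, 7186 genes, the brightest probe standing for a gene). The model was limma 3.58.1 in R 4.3.3 (lmFit on 6 group means, eBayes, Benjamini-Hochberg over 7830 probes, threshold 0.05), tested on simulated data. Figures used Python 3.11.15 and matplotlib 3.10.9. Low-signal runs were windows of 31 neighbouring probe numbers whose median deviation from the probe medians was under -0.4. The number of arrays limits the precision; the median SE of a control difference was 0.18. Members and the 41 gene lists were chosen with earlier results of these data known. Named genes are the 15 highest and 15 lowest differences among called probes with 1 symbol, separate stages and no low-signal value, members of each list past the threshold (otherwise up to 3 of lowest p), Folr2, sex-linked transcripts and cell type markers, and the text names a part of them, chosen after their values were seen. Alternatives changed scaling, filter, placeholders, prior, weights, series terms and arrays. Promoters came from RefSeq (GRCm38.p6), matched by symbol.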

Additional observations from a re-analysis of the deposited data

Results flagged for a closer look

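In 26 of 316 groups of 4 control arrays checked over the named genes, 1 array lay apart from the other 3 by Dixon's criterion (0.829), where chance alone gives about 1 in 20; 5 of these values lay in low-signal runs. At GD8:15, replicate 1 stood apart for Son (10.62), Fgfr1 (6.87), Osr1 (8.45), Cox6a1 (14.58) and Tpi1 (6.83). Replicate 3, the array of series C, did so for Cct5 (7.52), Sdf2l1 (10.75), Tagln (8.03) and Eif2s3y (7.79), and replicate 4 for Mapk8 (7.23), Jarid2 (7.30), Gdf5 (7.70) and Lamc1 (8.48). At GD9:00, replicate 1 stood apart for Cct5 (11.81), Mtdh (7.76), Hspbp1 (10.81) and Xist (8.71). Replicate 2 did so for Fst (7.29) and Efnb1 (7.17), replicate 3 for Atp5b (9.82), Rps6kb2 (7.89) and Otx2 (8.53), and replicate 4 for Nefm (6.91), Bmp8b (7.01), Cdc45 (7.56) and Mif (9.84).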

How the results depend on the processing

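No paired analysis was possible because the labels give no replicate numbers shared between groups. The count of 1173 probes (638 higher, 535 lower) became 2744 (168 and 2576) under the deposited scaling, which shifted the median of all probes to -0.49, 1972 (929 and 1043) with array weights, 622 (353 and 269) with only the 8 control arrays fitted, 35 (26 and 9) with title code series as a fixed term, and 56 (22 and 34) within series C, where the single GD8:15 array is assumed to vary like the other groups. Leaving out 1 control array gave 671 to 1394 probes (388 to 747 higher, 265 to 647 lower); the count moved most without GD8:15 replicate 1 (680) and replicate 4 (671). Leaving out GD9:00 replicates 1 and 2 together, chosen after seeing the data, gave 591 (304 and 287). Median centring (1025), placeholders kept (1156), no filter on dim probes (1356), masked low-signal runs (1275), a trended and robust prior (1234) and series as a random block (1346) stayed within 1.5 times, and in the masked fit 1109 of the 1173 probes passed the same way. The arsenic count of 330 became 151 under the deposited scaling, 62 with median centring, 887 with array weights, and 145 to 382 without 1 arsenic array, the lowest being without GD9:00 replicate 1 and then replicate 2 (160). The test between the arms gave 0 probes, and 2 with array weights. Under the deposited scaling these genes turned negative: Zic1 (-0.044), Foxa2 (-0.061), Dvl2 (-0.19), Nog (-0.25), Tgfbr1 (-0.14), Fkbp8 (-0.13), Mapk8 (-0.069), Jarid2 (-0.18), Rab23 (-0.20), Igfbp3 (-0.058), Igf1 (-0.23), Mcm2 (-0.0045), Tpi1 (-0.0054), Shmt1 (-0.056), Col2a1 (-0.053), Sema6a (-0.019), Efnb1 (-0.060) and Xist (-0.072), alongside the shift of all probes. The deposited mean is lower at GD9:00, at about 500 against 600, which is part of that shift. Without a call in any direction, Hba-x turned to 0.13 and Tagln to 1.18 within series C and with the fixed term, Hba-x ran from -0.12 to 0.024 without 1 control array (0.024 without GD8:15 replicate 1), and Kdm5d to 0.12 without GD9:00 replicates 1 and 2; the cause was not tested. Signal over background limits the dimmest genes.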
